A study of Mus musculus with 6 samples.

Results

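The genes described here are 43 members of the transforming growth factor beta (TGF-β) and activin, bone morphogenetic protein (BMP), Wnt and Notch pathways, the signals that bone marrow niche cells are known to send to blood stem cells. They were chosen by gene symbol, and each matched 1 of the 47561 rows of the count tables. There were 14 TGF-β and activin genes, 10 BMP genes, 12 Wnt genes and 7 Notch genes. The counts came from long-term haematopoietic stem cells (LT-HSCs), which can rebuild the whole blood system. They were sorted from the marrow of mice labelled control or Piezo1 knockout (KO), with 3 RNA-seq libraries in each group. These groups come from the sample titles; the genotype field reads WT for the controls and Piezo1 knockout for KO library 1, but Piezo2 knockout and Piezo3 knockout for KO libraries 2 and 3. Piezo1 is a cation channel of the plasma membrane that opens when the membrane is stretched. The labels do not give the allele, any Cre driver, the strain, age or sex of the mice, or whether each library came from a different mouse. The p-values below therefore measure only the spread between these libraries, which may be technical.

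In the TGF-β and activin branch a ligand brings together a type II and a type I receptor kinase, and the type I receptor then phosphorylates SMAD2 and SMAD3. BMP receptors phosphorylate SMAD1 and SMAD5 instead, and both sets of SMADs enter the nucleus with SMAD4. In canonical Wnt signalling, a Frizzled receptor with LRP5 or LRP6 stops the AXIN, APC and GSK3 destruction complex from marking β-catenin for breakdown, and β-catenin then works with TCF and LEF factors. Notch receptors are cut when a ligand on a neighbouring cell binds them, and the released part joins RBPJ and a Mastermind protein on target genes. TGF-β is known in bone marrow for holding stem cells in quiescence, and Notch for the choice of T cell fate and for stem cell regeneration. Many of these steps act on proteins, so the RNA levels below describe which parts were transcribed and not how active a pathway was.

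Promoters of 5 members are shown because the results turn on them: the ligand Tgfb1, the receptor Notch1 and the Notch target Nrarp, which are 3 of the 4 members with the smallest p-values below, and the BMP targets Id2 and Id3, of which the first was measured in every library and the second was at 0 in 5 of 6. Each sequence holds the 250 bases before the gene's start, 5′ to 3′ on the gene's own strand, from RefSeq on GRCm38.p6. Capitals mark the letters GGCGCC, a GC-rich element that SMAD1 and SMAD5 complexes are known to bind.
Tgfb1, chr7:25686752-25687001, plus strand: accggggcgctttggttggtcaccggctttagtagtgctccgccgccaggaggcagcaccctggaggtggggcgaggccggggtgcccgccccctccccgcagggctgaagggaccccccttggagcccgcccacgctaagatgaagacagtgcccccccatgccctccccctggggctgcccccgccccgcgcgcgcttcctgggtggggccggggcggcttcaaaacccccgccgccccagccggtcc
Notch1, chr2:26503823-26504072, minus strand: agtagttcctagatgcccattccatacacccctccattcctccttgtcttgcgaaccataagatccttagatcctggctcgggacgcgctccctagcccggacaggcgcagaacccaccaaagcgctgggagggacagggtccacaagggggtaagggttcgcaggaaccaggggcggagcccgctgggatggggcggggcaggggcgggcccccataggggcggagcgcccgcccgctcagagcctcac
Nrarp, chr2:25180508-25180757, plus strand: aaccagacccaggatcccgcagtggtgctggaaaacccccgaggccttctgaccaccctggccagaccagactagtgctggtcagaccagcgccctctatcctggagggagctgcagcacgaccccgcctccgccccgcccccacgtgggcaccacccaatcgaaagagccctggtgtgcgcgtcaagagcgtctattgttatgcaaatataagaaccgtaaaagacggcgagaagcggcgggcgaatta
Id2, chr12:25096093-25096342, minus strand: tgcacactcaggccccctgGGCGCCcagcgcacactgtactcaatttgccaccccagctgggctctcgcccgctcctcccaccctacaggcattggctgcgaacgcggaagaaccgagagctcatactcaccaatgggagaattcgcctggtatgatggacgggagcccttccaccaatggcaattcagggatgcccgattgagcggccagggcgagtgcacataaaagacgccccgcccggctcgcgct
Id3, chr4:136143572-136143821, plus strand: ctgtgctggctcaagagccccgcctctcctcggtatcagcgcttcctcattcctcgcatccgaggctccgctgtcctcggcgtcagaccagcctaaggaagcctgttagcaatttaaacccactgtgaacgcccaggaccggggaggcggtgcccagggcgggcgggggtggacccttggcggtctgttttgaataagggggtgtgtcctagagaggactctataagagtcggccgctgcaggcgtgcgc

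Promoters were matched for 31 of the 43 members, 41 promoters in all, and both strands were searched for 4 motifs, none of which holds another. No promoter was matched for Tgfbr3, Smad2, Smad4, Smad7, Skil, Id1, Lrp5, Lrp6, Axin1, Apc, Hes1 and Dtx4, so these were not searched. The SMAD palindrome GTCTAGAC was in 0 of the members' promoters and in 0.167% of all 32851 promoters of the same length. GGCGCC was in 14 of the members' 41 promoters and in 9.59% of all promoters. Those 14 belong to 12 members (Bmpr1a, Bmpr2, Ctnnb1, Fzd4, Id2, Lef1, Neo1, Ski, Smad5, Tcf7, Tcf7l2 and Tgfbr1). In Id2 it began 231 bases before the start. The RBPJ motif GTGGGAA, or TTCCCAC on the other strand, was in 2 of the 41, for Bmpr2 and Smad5, and in 5.42% of all promoters. Neither the Notch1 nor the Nrarp window shown holds it. The TCF and LEF motif CTTTGAT, or ATCAAAG on the other strand, was in 1 of the 41, for Maml1, and in 3.21% of all promoters. The members' promoters had a median GC content of 66.4%, against 52.4% for all promoters. A match is a run of letters and not a measured binding site.

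Total counts were 59435258 to 64653956 per library, and 16022 genes had enough counts to be tested. Levels are CPM (counts scaled to a fixed library total), adjusted by the trimmed mean of M values (TMM). A floor of 3 counts equals 0.0440 to 0.0539 CPM, and it covers counting error only. Piezo1 itself was at 17.0, 7.02 and 24.3 CPM in control libraries 1 to 3 and at 4.28, 7.99 and 9.46 CPM in KO libraries 1 to 3. The groups overlapped for Piezo1 (log2 fold change -1.15, SE 0.56, adjusted p = 0.508, edgeR quasi-likelihood test), control library 2 being below KO libraries 2 and 3. The genotype field of KO libraries 2 and 3 carries another Piezo number, as given above, and its part in these values was not tested. The LT-HSC markers Procr, Slamf1, Kit, Ly6a, Mecom, Hlf, Hoxb5, Fgd5, Ctnnal1 and Tek all reached 1 CPM in each of the 6 libraries, but 3 of these 10 had an unadjusted p below 0.05 between the groups by edgeR. Ly6a (Sca-1) was at 327 CPM on average in controls and 123 CPM in KO, and Procr (EPCR) at 48.7 and 13.8 CPM, while Kit was at 185 and 319.9 CPM. For Ly6a and Kit the groups did not overlap, and the adjusted p-values of the 3 were 0.297 to 0.398 (edgeR). Their part in the members' values was not tested. Markers of other cells differed between libraries: 7 megakaryocyte and platelet markers summed to 785 to 1054 CPM in controls and 1707 to 2524 CPM in KO, 8 erythroid markers to 2564 to 7565 CPM and 8228 to 26280 CPM (the 4 globin genes were higher in every KO library, whereas the means of Car1, at 2593 and 1116 CPM, and Klf1, at 133 and 84.1 CPM, were lower in KO), and 9 granulocyte markers to 11728 CPM in control 3 against 120.2 to 1155 CPM in the other 5 libraries. Most of the megakaryocyte and platelet sum came from Pf4, at 620 to 847 CPM in controls and 1364 to 2084 CPM in KO. In that list the groups also stood apart for Itga2b, Itgb3, Gp1bb and Vwf, and they overlapped for Gp9 and Ppbp. Of the T and NK cell markers Klrd1 and Cd8a were at 0 in all 6 libraries and Nkg7 was at 127 to 208 CPM in controls and 245.7 CPM or more in every KO library. Of the endothelial markers Cdh5 was at 0 in all, and Pecam1 (12.0 to 36.7 CPM) and Emcn (14.9 to 31.7 CPM) were present. Of the stromal markers Lepr was at 0 in all and Runx2 was at 12.3 to 30.3 CPM in controls and 35.5 to 47.5 CPM in KO. Of the progenitor markers Dntt was at 0 in all and Il7r in 5 libraries, with Cd34 at 73.4 to 175 CPM and Flt3 at 5.30 to 11.7 CPM. Cd48 was at 17.4, 32.3 and 19.3 CPM in controls and 46.3, 12.2 and 54.95 CPM in KO. The 5 monocyte and macrophage markers summed to 8.56 to 37.3 CPM per library, and the 5 B cell markers to 0.747 to 5.88 CPM. In sorted bulk samples, more cells of a type and more RNA per cell cannot be told apart.

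LT-HSCs expressed mediators of all 4 pathways and at least 1 receptor of each, which for BMP was only the type II receptor Bmpr2 among its 3 receptor members. Of the 43 members, 30 were at 1 CPM or more in each of the 6 libraries (called expressed below), and 21 were at 5 CPM or more. The 30 make up 69.8% of the 43 members, counting those too low to be tested. Of all tested genes, 70.1% were at 1 CPM or more in each of the 6 libraries. The share of members expressed was therefore near that of all tested genes, and it does not set these pathways apart. Expressed were 12 of 14 TGF-β and activin genes, 6 of 10 BMP genes, 7 of 12 Wnt genes and 5 of 7 Notch genes. Per kilobase of transcript, the scale on which different genes can be compared, the mean over 6 libraries was highest for Ctnnb1 at 68.5 CPM per kilobase, above 89.7% of the tested genes. Eng followed at 20.4, Smad4 at 15.1, Tgfbr3 at 12.3, Notch2 at 10.3, Gsk3b at 9.88 and Rbpj at 9.06 CPM per kilobase. The range of Ctnnb1 over libraries, 48.1 to 81.7 CPM per kilobase, lay above that of each of the other members, whereas Smad4 (9.97 to 23.0), Tgfbr3 (8.15 to 16.0) and Notch2 (9.21 to 11.7) overlapped one another. The plot of members' levels per kilobase shows this order.

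**Figure D1:**
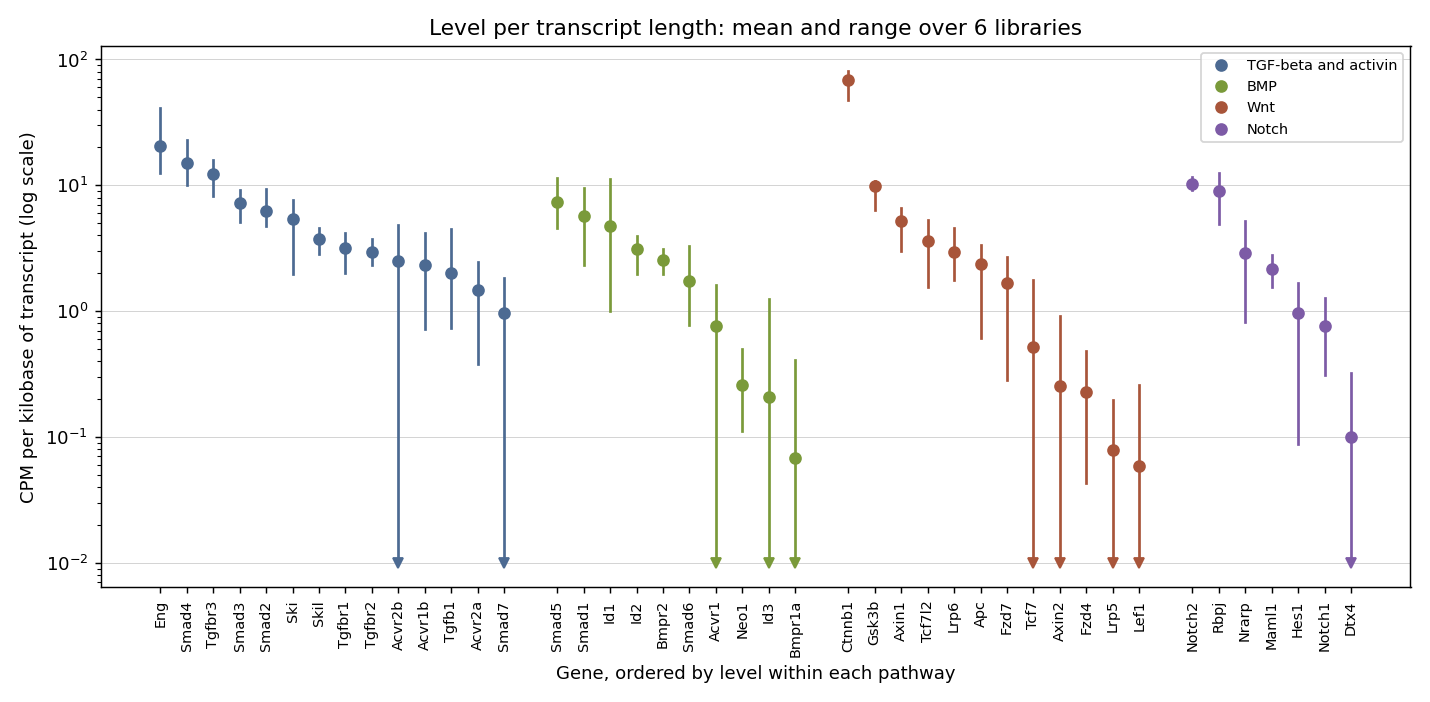
Level of each member per kilobase of transcript, grouped by pathway, on a log axis in CPM per kilobase. Dots are means over the 6 libraries and lines run from the lowest to the highest library; a triangle at the bottom marks a gene with a library at 0 counts. Ctnnb1 stands highest at 68.5 CPM per kilobase, and 10 of the 43 members had 0 counts in a library.

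Comparing KO with control libraries, 0 of the 43 members passed an adjusted p of 0.05 by edgeR's quasi-likelihood test, and 0 passed by DESeq2. Over all genes tested the edgeR count was 0 of 16022 (0%) and the DESeq2 count was 761 of 16492 (4.61%), with 373 of the 16492 higher in KO (2.26%). The lowest adjusted p among members was 0.382 (edgeR, Tgfbr3) and 0.0992 (DESeq2). At an unadjusted p below 0.05, 4 of the 40 members that could be tested were higher in KO (Tgfb1, Tgfbr3, Notch1 and Nrarp, 10%) and 0 were lower, where 11% of all tested genes were under that value, 5.44% higher and 5.59% lower. All 3 KO values exceeded all 3 control values for 7 members (17.5%): the same 4, Smad1, Notch2 and Maml1. The groups stood apart in this way for 19.5% of all tested genes, 10.7% higher and 8.76% lower in KO, and 0 members were lower. Both member counts are therefore near those of all genes in total, and the members' direction is set beside transcript length below. With 1 library left out, and so fewer samples, the log2 fold changes of these 4 kept their sign (Tgfb1 1.16 to 1.72, Tgfbr3 0.52 to 0.83, Notch1 1.01 to 1.37 and Nrarp 1.0 to 1.52), but the members with a low p-value changed. By edgeR, 0 members were under 0.05 without KO library 2 or without KO library 3, 1 (Nrarp) without control 1, 3 (Tgfbr3, Notch1 and Acvr1) without control 2 and 3 (Tgfbr3, Lef1 and Rbpj) without KO 1. Without control 3, the library with the high granulocyte markers, there were 5 others (Tgfbr1, Fzd7, Lrp5, Ctnnb1 and Axin2). In these fits Acvr1, Lef1, Lrp5 and Axin2 had 0 counts in every control that was left. They were testable there only through KO, so their p-values are not read as support.

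**Figure D2:**
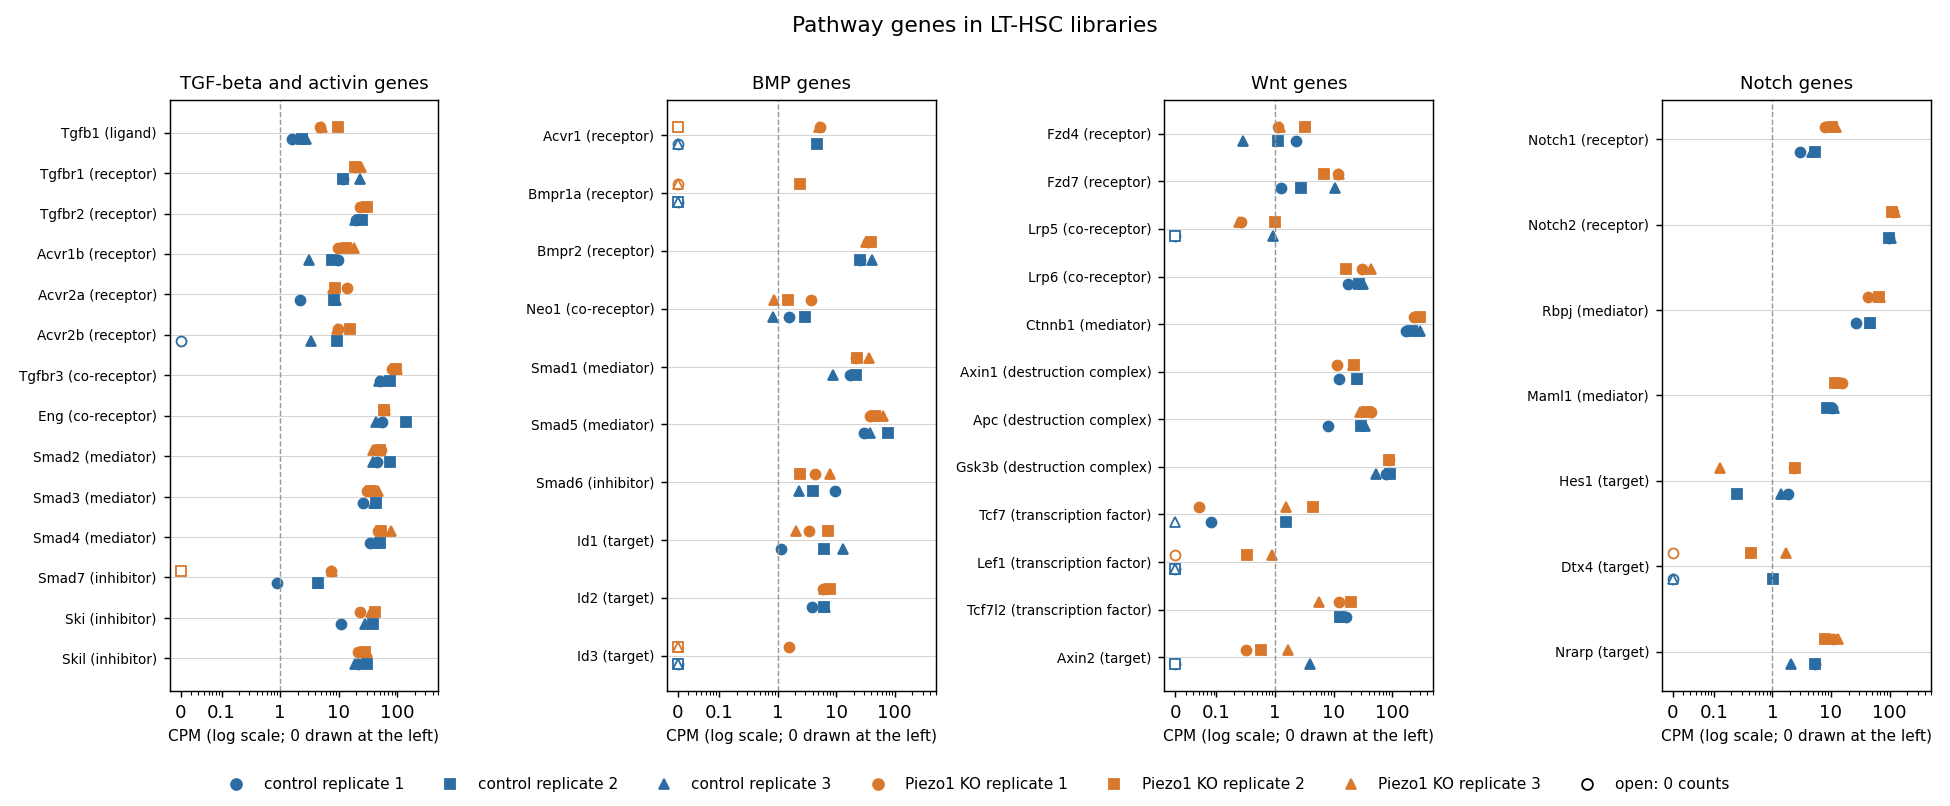
CPM of every member in each of the 6 libraries, in 4 panels by pathway, on a log axis with 0 counts drawn as open symbols at the left edge. Blue is control, orange is KO, marker shape gives the replicate number and the dashed line is at 1 CPM. The groups separate for Tgfb1, Tgfbr3, Smad1, Notch1, Notch2, Maml1 and Nrarp and overlap for the rest.

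Among the TGF-β and activin genes the only ligand member, Tgfb1, was expressed in all 6 libraries, at a mean of 2.02 CPM per kilobase. It was at 1.60, 2.37 and 2.75 CPM in control libraries 1 to 3 and at 4.73, 9.70 and 5.26 CPM in KO libraries 1 to 3. All KO libraries were above all controls, with KO 2 the highest. The means were 2.24 ± 0.586 CPM in control and 6.56 ± 2.73 CPM in KO (SD, n = 3 each). The log2 fold change was 1.55 (SE 0.63) and did not pass by edgeR's quasi-likelihood test (unadjusted p = 0.0425, adjusted p = 0.436). The megakaryocyte and platelet marker sums given above were also higher in every KO library than in every control, and their part in the Tgfb1 values was not tested.

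Both chains of the TGF-β receptor were expressed. Tgfbr1, the type I kinase, was at 11.6, 11.8 and 23.0 CPM in controls and 19.1, 19.3 and 24.2 CPM in KO. Tgfbr2, the type II chain that binds the ligand first, was at 19.9, 24.8 and 18.9 CPM in controls and 23.0, 30.0 and 27.0 CPM in KO. For both the groups overlapped, control 3 being high for Tgfbr1 and control 2 for Tgfbr2. The activin receptor Acvr1b ranged from 3.16 to 18.6 CPM (log2 fold change 0.99, SE 0.53) and Acvr2a, an activin type II receptor, from 2.16 to 14.0 CPM (0.67, SE 0.62). The exons of Acvr2a share 446 bases with Orc4 on the opposite strand, and the labels do not say whether reads were counted by strand. In all, 12 members share exon bases with another annotated gene, and for 4 (Acvr2a, Eng, Ctnnb1 and Notch1) that gene has counts of its own. Acvr2b was at 0, 9.49 and 3.40 CPM in controls and 9.78, 15.5 and 9.48 CPM in KO, control 2 lying just above KO 3 and control 1 listed at 0.

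The co-receptors were among the most highly expressed members. Tgfbr3 (betaglycan), which presents TGF-β and inhibin to the signalling receptors, was at 51.0, 75.6 and 49.6 CPM in controls and at 81.0, 93.6 and 97.5 CPM in KO. The groups did not overlap, and the means were 58.7 ± 14.6 and 90.7 ± 8.61 CPM (SD, n = 3 each). Its log2 fold change of 0.63 (SE 0.22) did not pass (edgeR, unadjusted p = 0.0250, adjusted p = 0.382). Eng (endoglin), a co-receptor that also serves BMP ligands and is known as a surface marker of LT-HSCs, was at 53.8, 140.1 and 43.2 CPM in controls and 59.9, 59.9 and 61.2 CPM in KO. Control 2 alone was high, and without it the log2 fold change went from -0.39 (SE 0.43) to 0.29.

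The mediators Smad2 and Smad3, which carry the TGF-β and activin signal, and Smad4, shared with BMP, were all expressed and overlapped between the groups. Smad2 ranged from 38.3 to 76.2 CPM and Smad3 from 26.0 to 46.5 CPM, with log2 fold changes of -0.17 (SE 0.30) and 0.05 (SE 0.28). Smad4 was at 33.7, 50.5 and 42.9 CPM in controls and 47.4, 53.3 and 77.9 CPM in KO (0.49, SE 0.27), KO 3 being the highest. Of the inhibitors, Ski (10.9 to 42.1 CPM) and Skil (19.1 to 30.9 CPM), which hold SMAD targets off, were expressed in all libraries. Smad7, an inhibitory SMAD that blocks the type I receptor, was at 0.891, 4.40 and 4.39 CPM in controls and 7.46, 0 and 7.81 CPM in KO, so its highest libraries and its library at 0 were all KO. Over the 14 members, 12 fitted log2 fold changes were positive, with a median of 0.46, beside 52.2% positive and a median of 0.03 over all tested genes. The 27 further genes of this pathway that were tested, described below, had a median of -0.07, with 12 positive and 15 negative.

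In the BMP branch the type II receptor Bmpr2 and the mediators were expressed, whereas the 2 type I receptors were listed at 0 in 3 and in 5 of the 6 libraries. Bmpr2 was at 25.3, 25.4 and 40.3 CPM in controls and 35.6, 39.9 and 32.4 CPM in KO. Acvr1 (ALK2), a type I receptor, was at 0 CPM in controls 1 and 3 and in KO 2, and at 4.70, 5.30 and 5.10 CPM in control 2, KO 1 and KO 3. Those are 316 to 321 counts in the latter 3 libraries and 0 in the former 3. Bmpr1a, the other type I receptor member, had 146 counts in KO 2 (2.42 CPM) and 0 in the other 5, and it was too low to be tested. Neo1 (neogenin), a receptor for BMP co-receptors of the repulsive guidance family, ranged from 0.827 to 3.69 CPM.

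This pattern of 0 counts in one library and 50 counts or more in another was found for 10 of the 43 members (23.3%). It was found for 7 of the 40 tested members (17.5%) and 15.8% of all tested genes, and, with a mean under 5 CPM, for 6 of 10 tested members (60%), 9 of 13 members in all (69.2%) and 46.1% of all tested genes. A member at 0 in a library is therefore described as listed at 0 there and not as absent from the cells. Members at 0 numbered 8, 5 and 6 in controls 1 to 3 and 3, 3 and 2 in KO 1 to 3, and tested genes at 0 were 9.37%, 3.48% and 7.04% in controls and 3.76%, 2.72% and 4.64% in KO. The part of this difference in the fold changes of low members was not tested.

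Smad1, a mediator of BMP signals, was at 17.5, 22.0 and 8.79 CPM in controls and 22.1, 22.4 and 35.7 CPM in KO. The groups did not overlap, but control 2 and KO 1 differed by less than 1 CPM; the log2 fold change was 0.73 (SE 0.41; edgeR, unadjusted p = 0.118, adjusted p = 0.573). Smad5, its partner, ranged from 30.3 to 75.6 CPM in controls alone (0.05, SE 0.38). Smad6, the inhibitory SMAD of the BMP branch, ranged from 2.30 to 9.74 CPM (-0.12, SE 0.76). Of the 3 inhibitor of DNA binding (Id) targets, Id1 and Id2 were expressed, at 4.78 and 3.09 CPM per kilobase over the 6 libraries, and Id3 was listed at 0 in most. Id1 was at 1.16, 6.26 and 12.9 CPM in controls and 3.49, 7.41 and 2.05 CPM in KO, a spread of over 10 CPM within controls. Id2 was steadier, at 3.90, 6.17 and 6.51 CPM in controls and 6.07, 7.74 and 6.14 CPM in KO (0.27, SE 0.50). Id3 had 95 counts in KO 1 (1.59 CPM) and 0 in the other 5, and was too low to be tested. Of the 8 tested BMP members 6 had positive fold changes, with a median log2 fold change of 0.21.

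Among the Wnt genes the β-catenin gene and the 3 destruction complex members were expressed in all 6 libraries, from 2.35 CPM per kilobase for Apc to 68.5 for Ctnnb1. The direct target Axin2 and the nuclear factors Tcf7 and Lef1 did not reach 1 CPM in every library. Ctnnb1 (β-catenin) was at 174, 219 and 296 CPM in controls and 241, 294 and 266 CPM in KO (log2 fold change 0.22, SE 0.22). KO libraries lay within the control range. Gsk3b, the kinase that marks β-catenin, was at 79.9, 90.6 and 52.6 CPM in controls and 90.0, 90.1 and 89.3 CPM in KO, so the KO libraries differed by less than 1 CPM while control 3 was low. Apc, the scaffold of the complex, was at 7.89 CPM in control 1 and at 28.8 to 43 CPM in the other 5 libraries (0.59, SE 0.52). Axin1, its limiting component, ranged from 11.3 to 24.8 CPM (-0.17, SE 0.41).

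Of the Wnt receptors, Fzd7 was at 1.29, 2.74 and 10.6 CPM in controls and 11.7, 6.96 and 12.3 CPM in KO (log2 fold change 1.08, SE 0.81), control 3 lying among the KO libraries. Fzd4 ranged from 0.288 to 3.26 CPM. The co-receptor Lrp6 was expressed at 16.4 to 42.8 CPM, whereas Lrp5, its paralogue, ranged from 0 to 1.01 CPM. Of the nuclear factors, Tcf7l2 (TCF4) was expressed, at 16.2, 12.7 and 13.7 CPM in controls and 12.6, 19.7 and 5.74 CPM in KO, the highest and lowest values both being KO. Tcf7 (TCF1) ranged from 0 to 4.40 CPM, and Lef1 was at 0 in 4 libraries and at 0.332 and 0.898 CPM in KO 2 and KO 3. Axin2, a direct β-catenin target often used as a readout of the pathway, was at 0, 0 and 3.90 CPM in controls and 0.319, 0.581 and 1.68 CPM in KO. With controls spread over that range its log2 fold change of -0.59 carried an SE of 2.32. Of the 11 tested Wnt members 8 had positive fold changes (median log2 fold change 0.27), and in 0 of them did the groups stand apart.

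All 7 Notch members had positive log2 fold changes, with a median of 0.58, and for 4 of the 7 the KO libraries stood above all controls, as they did for 10.7% of all tested genes; 0 passed the adjusted threshold. Of these 4, Notch2 and Maml1 had negative log2 fold changes (-0.38 and -0.06) once the trend with transcript length and GC content was removed. The 37 further Notch genes that were tested, described below, had a median of 0.06, with 20 positive and 17 negative. Notch1, the receptor known for T cell fate, was at 2.97, 5.29 and 4.69 CPM in controls and 7.80, 10.4 and 12.0 CPM in KO. The groups were apart, with means of 4.32 ± 1.20 and 10.1 ± 2.14 CPM (SD, n = 3 each). The log2 fold change was 1.22 (SE 0.49; edgeR, unadjusted p = 0.0394, adjusted p = 0.425). Exons of Notch1 share 1068 bases with 0610009E02Rik on the opposite strand, a gene with 483 counts over the 6 libraries. Notch2, the main Notch receptor by level, was at 96.7, 98.9 and 105.8 CPM in controls and 115, 112 and 122 CPM in KO. The groups did not overlap, but the difference was small: 100.5 ± 4.75 against 116 ± 5.41 CPM (SD, n = 3 each), a log2 fold change of 0.21 (SE 0.15; edgeR, unadjusted p = 0.189, adjusted p = 0.667). Per kilobase, Notch2 was at 10.3 and Notch1 at 0.758 CPM per kilobase over the 6 libraries.

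The nuclear partners were both expressed. Rbpj, the DNA-binding factor that the cut receptor joins, was at 27.2, 46.3 and 46.1 CPM in controls and 43.5, 66.5 and 68.5 CPM in KO, with KO 1 inside the control range (log2 fold change 0.58, SE 0.29; edgeR, unadjusted p = 0.0878, adjusted p = 0.527). Maml1, the Mastermind co-activator, was at 10.5, 8.62 and 11.5 CPM in controls and 15.5, 11.7 and 14.1 CPM in KO, groups that were apart by less than 1 CPM (0.43, SE 0.34; adjusted p = 0.725 by edgeR).

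Of the 3 targets, Nrarp, which feeds back on Notch by binding the cut receptor, was at 5.36, 5.32 and 2.12 CPM in controls and 10.9, 7.84 and 13.4 CPM in KO. Every KO library was above every control, and the means were 4.27 ± 1.86 and 10.7 ± 2.76 CPM (SD, n = 3 each). The log2 fold change was 1.32 (SE 0.55; edgeR, unadjusted p = 0.0457, adjusted p = 0.443). Its exons share 2051 bases with an antisense gene, so without strand the reads of the pair cannot be told apart. Hes1, a classic Notch target, fell short of 1 CPM in control 2 and KO 3 and its groups overlapped, at 1.88, 0.249 and 1.42 CPM in controls and 2.35, 2.47 and 0.128 CPM in KO (0.48, SE 1.30). Dtx4 was at 0 in 3 libraries and at 0.432 to 1.70 CPM in the others.

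As a description of each library, the median over tested members of log2(CPM + 1), centred on the gene's own mean, was taken by pathway. For Notch it was -0.25, -0.26 and -0.04 in controls and 0.22, 0.22 and 0.52 in KO, so the groups did not overlap. For TGF-β and activin it was -0.51, 0.17 and -0.33 in controls and 0.08, 0.18 and 0.37 in KO, and control 2 lay within the KO range. BMP (-0.43, 0.28 and -0.43 against 0.07, 0.09 and 0.24) and Wnt (-0.56, 0.00 and 0.28 against -0.02, 0.27 and 0.14) overlapped. The megakaryocyte and platelet marker sum and the globin genes were higher in every KO library, as the Notch values were, while the erythroid markers Car1 and Klf1 were lower on average, and their part in them was not tested.

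**Figure D3:**
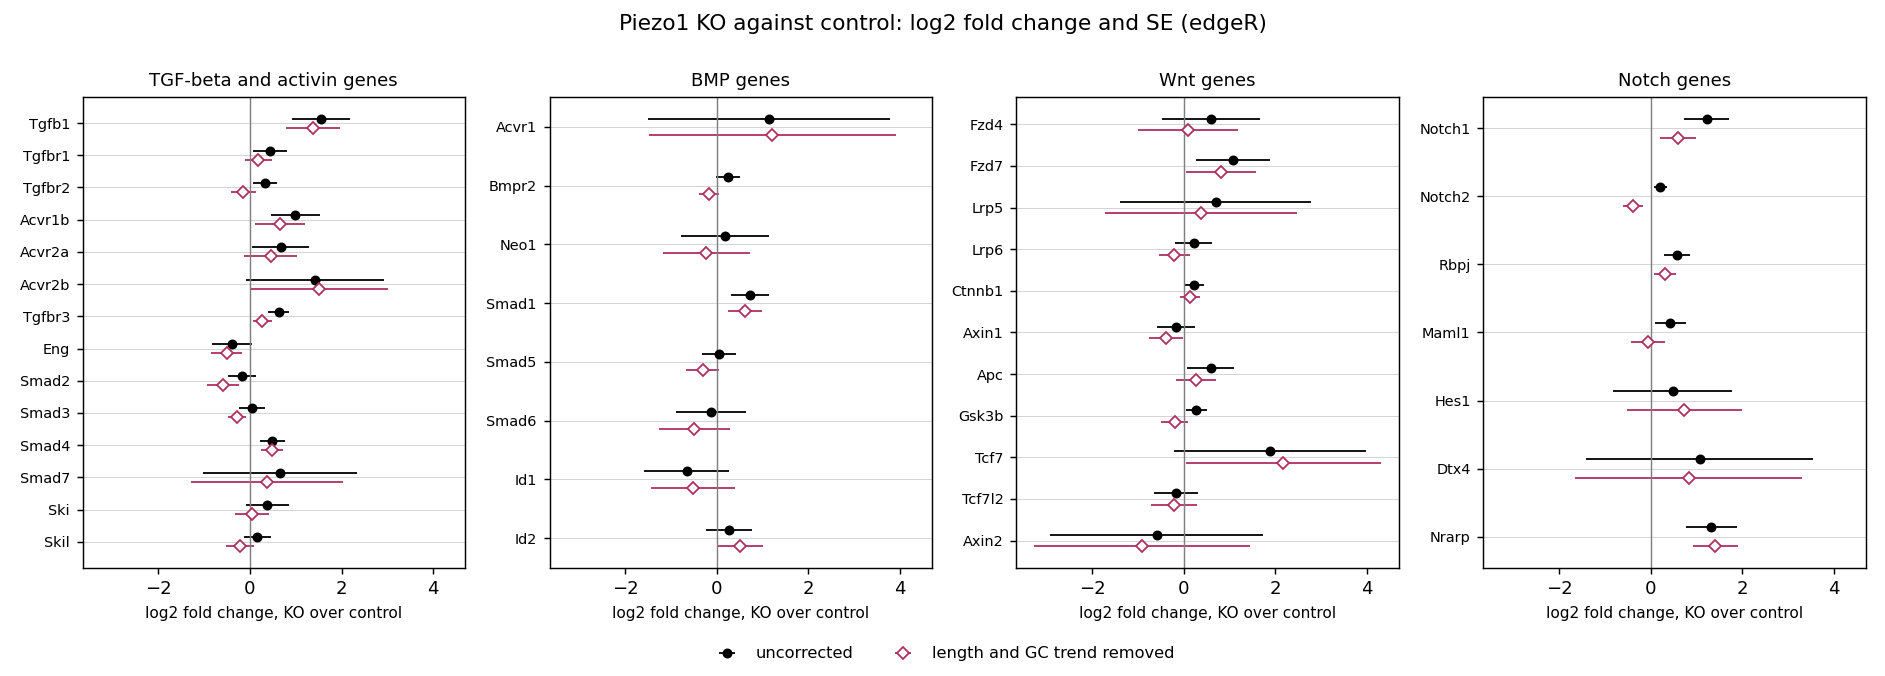
Log2 fold change of KO against control for the 40 tested members, grouped by pathway. Black points with bars are the edgeR estimate ± SE and open diamonds are the estimate after the trend with transcript length and GC content was removed; 33 of 40 lie above 0 before and 23 of 40 after.

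Over all genes the direction moved with transcript length. A positive log2 fold change was found for 33 of the 40 tested members (82.5%), against 52.2% of all tested genes, and their transcripts were long, with a median of 5126 bases against 2686. Over all tested genes with a length, the share with a positive value was 39.8% under 2 kb, 47.3% from 2 to 4 kb, 66.2% from 4 to 6 kb and 76.9% at 6 kb or more, and the median log2 fold change in the longest class was 0.41. Of the members, 12 of 13 in the longest class, 11 of 12 in the next, 8 of 12 from 2 to 4 kb and 2 of 3 under 2 kb were positive. Their median log2 fold changes did not rise with length in the same way: from the shortest class to the longest they were 0.27, 0.61, 0.62 and 0.25, beside -0.13, -0.05, 0.26 and 0.41 for all genes. After the trend with length and GC content had been removed, 50% to 51.1% of genes were positive in each class, and 23 of 40 members (57.5%). In the longest class, 4 of 13 members then had a positive value. What makes long transcripts higher in these KO libraries was not tested.

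**Figure D4:**
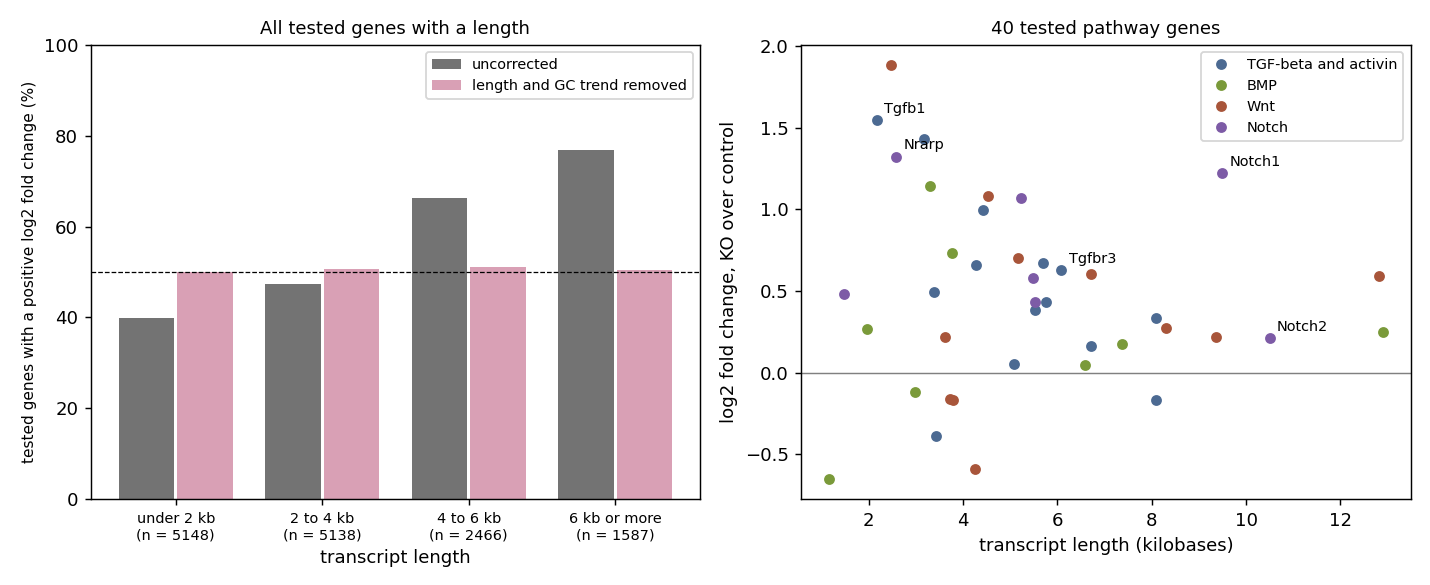
Left, percent of tested genes with a positive log2 fold change by transcript length class in kb, before and after the length and GC trend was removed; bars start at 0. Right, log2 fold change of each tested member against transcript length. The left bars rise from 39.8% to 76.9% before removal and stay between 50% and 51.1% after it.

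Among the members singled out above, Notch2 and Maml1 went below 0 after the removal, at -0.38 and -0.06 on the log2 scale. Notch1 had a log2 fold change of 0.60 (SE 0.39; edgeR, unadjusted p = 0.172), Tgfbr3 of 0.27 (SE 0.21; unadjusted p = 0.240) and Smad1 of 0.61. Tgfb1 was at 1.38 (SE 0.59; edgeR, unadjusted p = 0.0518) and Nrarp at 1.42 (SE 0.48; unadjusted p = 0.0226, adjusted p = 0.392). Nrarp was then the only member under an unadjusted p of 0.05. The Notch median was 0.60, that of TGF-β and activin 0.23, of Wnt 0.09 and of BMP -0.19. Above that Notch median lay Nrarp, Hes1 (0.73, SE 1.3) and Dtx4 (0.83, SE 2.5). Hes1 and Dtx4 did not reach 1 CPM in every library and their groups overlapped, so the Notch median leans on 2 poorly measured members. Rbpj, which was expressed, was at 0.32.

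The surrounding genes of the 4 pathways were read from a list of 167 further ligands, receptors, regulators and targets. Of these, 108 were tested, 70 were expressed in all 6 libraries and 42 were at 0 in all. The median log2 fold change of the tested ones was -0.07 for TGF-β and activin (12 positive, 15 negative) and 0.55 for BMP (4 and 3). It was 0.43 for Wnt (26 and 11) and 0.06 for Notch (20 and 17). By edgeR 0 passed an adjusted p of 0.05, and 11 had an unadjusted p below 0.05, 10 of them higher and 1 lower in KO, which is 10.2% of those tested. That is near the 11% of all tested genes (5.44% higher and 5.59% lower). Of the 27 tested TGF-β genes 3 were higher and 1 lower, of the 7 BMP genes 1 higher, of the 37 Wnt genes 2 higher and of the 37 Notch genes 4 higher. The higher genes include Thbs1, Gsk3a and the BMP gene, Bmp7, which had enough counts to be tested only through the KO libraries. The direction of these counts is therefore not read as a result. By DESeq2, 6 of the 111 genes of the list with an adjusted p were under 0.05 (5.41%, beside 4.61% of all genes): Thbs1, Bmp7, Amer1, Gsk3a and Numb were higher and Grem1 lower. Thbs1, Bmp7 and Gsk3a were testable only through KO, as above, and Grem1 had counts only in controls 1 and 3. The calls of these genes are therefore not read as support.

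LT-HSCs carried little RNA for most ligands of these pathways. All 6 libraries were at 0 for 14 of the 17 Wnt genes, and Wnt2b, Wnt5b and Wnt10b were detected in some libraries at 2.48 CPM or less. The Notch ligands Dll1 and Dll3 were at 0 in all libraries, and Jag2 ranged from 0.594 to 4.21 CPM. Jag1 was at 1.09, 1.23 and 1.55 CPM in controls and 0.671, 0.997 and 0.208 CPM in KO; the groups stood apart, and the difference did not pass (edgeR, unadjusted p = 0.332, adjusted p = 0.785). Dlk1, a non-canonical Notch ligand, was at 0.660, 0.454 and 0.935 CPM in controls and 0, 0.199 and 0 CPM in KO. It was testable only through the controls, so no p is given and the lower KO values are not read as support. Inhbb, Mstn and Gdf2 were at 0 in all libraries. Inhba, which encodes the activin A chain, was at 3.83, 5.77 and 8.37 CPM in controls and 0.117, 8.42 and 0.705 CPM in KO, the KO libraries spanning a wider range than the controls.

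In the TGF-β list, Thbs1 (thrombospondin 1), which can release TGF-β from its latent form, was at 0.116, 0.278 and 0.377 CPM in controls. In KO it was at 2.65, 3.12 and 2.36 CPM (log2 fold change 3.39, SE 0.97). No p is given, since control 1 had 7 counts and Thbs1 was testable only through the KO libraries. Thbs1 is also known as a platelet granule gene, and the part of the platelet marker sums in it was not tested. Itgav, the integrin chain that binds latent TGF-β, was at 6.52, 6.24 and 10.9 CPM in controls and 14.6, 18.3 and 21.8 CPM in KO (1.21, SE 0.39; edgeR adjusted p = 0.359). Strap, which binds the receptors and SMAD7, was at 332, 235 and 298 CPM in controls and 218, 185 and 187 CPM in KO (-0.55, SE 0.18; edgeR adjusted p = 0.360), the only gene of the list under an unadjusted p of 0.05 that was lower. For these 3 the groups did not overlap.

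Bmp7, a BMP ligand, was listed at 0 in all controls and at 0.436, 2.96 and 0.609 CPM in KO. The KO mean was 27.1-fold a floor of 3 counts per control library, and the library at 2.96 CPM contributed most of that mean. The floor covers counting error only, so this ratio is not a lower bound on the difference. No p is given, since Bmp7 was testable only through the group where it is high. The BMP-binding Twsg1 (log2 fold change 0.55, SE 0.33) and Crim1 (0.63, SE 0.43) had the next smallest p-values of that list and did not pass. Amer1, which brings the destruction complex to the membrane, was at 8.93, 11.3 and 10.1 CPM in controls and 19.7, 21.4 and 21.8 CPM in KO (1.05, SE 0.30; edgeR adjusted p = 0.303). Its transcript is 8496 bases long, and with the length and GC trend removed its log2 fold change was 0.61. Gsk3a, the paralogue of Gsk3b, was at 0.0990, 0 and 0.252 CPM in controls and 1.39, 1.33 and 7.76 CPM in KO, KO 3 being well above the others; it too was testable only through KO. Bcl9, a β-catenin co-activator, had a log2 fold change of 1.29 (SE 0.55; edgeR unadjusted p = 0.0508).

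Of the Notch list, Numb, which restrains Notch receptors by endocytosis, was at 3.14, 4.81 and 2.19 CPM in controls and 10.5, 8.79 and 9.46 CPM in KO (log2 fold change 1.51, SE 0.52; edgeR adjusted p = 0.378). With the length and GC trend removed it was at 1.48. Ncor1, a co-repressor that can sit with RBPJ on silent targets, was at 85.3, 118 and 165 CPM in controls and 183.6, 183.8 and 263 CPM in KO (0.78, SE 0.28; edgeR adjusted p = 0.389), and at 0.34 with the trend removed. Dtx3, a Deltex family gene, was at 3.83, 9.54 and 7.64 CPM in controls and 9.99, 21.7 and 20.99 CPM in KO (1.33, SE 0.50; edgeR adjusted p = 0.404), with KO 1 only just above control 2. The Notch sheddase Adam10 was at 179 to 217 CPM in every library, a level at which the groups overlapped (-0.07, SE 0.15).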

How the data were processed

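RNA-seq was made from total RNA of LT-HSCs (TRIZOL, TruSeq RNA kit, per the labels' protocols). The authors deposited raw read counts per gene, 1 table per library. Per the submitters' processing notes, HISAT2 2.1, featureCounts 1.6.4 and the mm10 build belong to the processing; cutadapt 1.16.5, bcl2fastq 2.19 and DESeq2 2.11.40.6 are also named, with no order. Whether counting used strand is not given in these sources. Groups were taken from the sample titles; the genotype label of KO libraries 2 and 3 carries another Piezo number.

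Counts of genes kept by filterByExpr were scaled by TMM and tested with edgeR 4.0.16 (quasi-likelihood, R 4.3.3), with Benjamini-Hochberg adjustment over all genes; SEs were derived from the F statistic. DESeq2 1.42.0 was an alternative. The test was tried on simulated counts. Lengths are of the longest protein-coding transcript (GENCODE M21, 89.5% of tested genes and all 43 members). A fitted trend of the counts with length and GC content was removed by offsets.

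CPM per library is given for members under an unadjusted p of 0.05, for members whose groups did not overlap and where a role turned on them; from the further genes of each pathway, the 3 with the smallest p are named, and ligands by level. The remaining genes of that list given with values (Adam10) were chosen after their values were seen. A further LT-HSC marker of the list is not reported here. The members and all gene lists were chosen with earlier results of these data known.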

Additional observations from a re-analysis of the deposited data

How the results depend on the processing

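No member passed an adjusted p of 0.05 under any alternative run. Over all genes, 1 passed when genes had to reach 5 CPM in 3 libraries, 761 with DESeq2 and 0 to 1 with 1 library left out (1 without control 1), against 0. Genes at an unadjusted p under 0.05 numbered 1401 higher and 1427 lower with DESeq2, against 871 and 896; leaving out 1 library gave 562 to 1339 higher and 573 to 1299 lower. Members higher at that p numbered 1 with the 5 CPM filter (Tgfbr3), 2 with the replicate block (Tgfbr3 and Rbpj), 1 with the length and GC trend removed (Nrarp) and 0 to 5 with 1 library left out, against 4. The counts with 1 library left out include members with 0 counts in every control that was left, as given above. The Wnt median was 0.79 with the replicate block and the BMP median -0.19 with the length and GC trend removed, against 0.27 and 0.21. Leaving out 1 library gave Notch medians of 0.45 to 0.74. With that trend removed, the log2 fold changes that turned negative were Tgfbr2 -0.14, Smad3 -0.27, Skil -0.22, Bmpr2 -0.16, Neo1 -0.23, Smad5 -0.31, Lrp6 -0.20, Gsk3b -0.20, Notch2 -0.38 and Maml1 -0.059; with the replicate block Axin2 turned to 4.70. The cause of these shifts was not tested. With 1 library left out the sign changed for 15 members, whose log2 fold changes ran from -0.43 to 0.071 for Axin1, -1.53 to 8.75 for Axin2, -0.65 to 8.40 for Dtx4, -0.69 to 0.29 for Eng, -0.070 to 1.40 for Fzd4, -0.022 to 1.01 for Hes1, -1.29 to 0.22 for Id1, -0.29 to 7.99 for Lrp5, -0.14 to 0.51 for Lrp6, -0.60 to 0.72 for Neo1, -0.36 to 0.15 for Smad2, -0.14 to 0.17 for Smad3, -0.20 to 0.51 for Smad5, -0.67 to 0.63 for Smad6 and -0.63 to 0.17 for Tcf7l2. Over all alternatives Tgfb1 ran from 1.16 to 1.72 (adjusted p 0.0992 to 0.787), Tgfbr3 from 0.27 to 0.83 (0.124 to 0.747), Notch1 from 0.60 to 1.37 (0.10 to 0.779) and Nrarp from 1.0 to 1.52 (0.168 to 0.812), all by edgeR or DESeq2. Libraries with the same number deviated together only weakly (r = 0.038, 0.016 and 0.0333 over genes). Libraries with different numbers were at r = -0.0389 to 0.00788, below each of those. The replicate block therefore rests mainly on the numbers. The spread between libraries, as a common biological coefficient of variation over all tested genes, was 0.755. The part of depth in these comparisons was not tested.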
